A study of Mus musculus with 24 samples.

Results

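The genes described here encode nuclear-encoded subunits of the oxidative phosphorylation machinery of mitochondria, with a few factors that help to build it. They were chosen by symbol from the deposited table. The choice took every gene whose symbol begins with Ndufa, Ndufb, Ndufc, Ndufs, Ndufv, Uqcr, Cox4 to Cox8 or Atp5, and the succinate dehydrogenase genes Sdha, Sdhb, Sdhc and Sdhd, and left out genes of Chr 17, the chromosome that carries the segment differing between the mice. It found 75 of 13998 genes. Of these, 27 belong to complex I, 4 to complex II, 8 to complex III, 13 to complex IV, 16 to complex V, and 7 are complex I assembly factors. Ndufa4, which carries a complex I symbol but is a subunit of complex IV, was counted with complex IV, and Atp5sl, which carries a complex V symbol, with the assembly factors. No measured value entered the choice.

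Hypothalamus RNA was profiled by SAGE-Seq in 24 individual male F2 mice of a subcongenic intercross. In 12 mice both copies of the proximal Chr 17 segment came from CAST/EiJ (cast/cast), and in 12 both came from C57BL/6J (b6/b6). All 24 were b6/b6 elsewhere in the genome. Mice entered the study at 10 to 16 weeks of age, chose between a carbohydrate/protein (C/P) and a fat/protein diet for 10 d, went back to chow, and received the choice diets again for 48 h before harvest, which followed a 4 h fast. The mice were picked on their intake, cast/cast from the high and b6/b6 from the low end of carbohydrate intake, so genotype and intake cannot be told apart between the groups. Total intake over 10 d lay between 104.0 and 133.1 kcal in cast/cast mice and between 94.8 and 120.2 kcal in b6/b6 mice. C/P intake lay between 77.8 and 106.6 kcal in cast/cast mice and between 27.4 and 41.0 kcal in b6/b6 mice, without overlap. The hypothalamus was lifted out as a whole, so fewer cells of a type and less RNA per cell cannot be told apart in any value below.

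Oxidative phosphorylation couples the oxidation of fuel to the making of ATP. Complex I takes electrons from NADH and complex II from succinate, both pass them to ubiquinone, complex III passes them on to cytochrome c, and complex IV hands them to oxygen. Complexes I, III and IV pump protons across the inner mitochondrial membrane, and complex V, the ATP synthase, lets them flow back to drive ATP synthesis. Neurons depend heavily on this pathway, and most of its subunits are encoded in the nucleus. Several complex IV subunits and the membrane ring subunit of complex V exist as pairs or trios of paralogues with different tissue patterns.

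In SAGE a transcript is read through a tag that starts at its most 3′ CATG, the site cut by NlaIII, and runs for 27 bases. By design 1 tag is read per transcript whatever its length. How well a tag is read may still differ between genes, which was not tested. The tags predicted from GENCODE transcripts matched to the RefSeq accessions are shown for the genes that the results below turn on. They are read from GRCm38 on the strand of the gene, with the CATG in capitals. The first 7 tell paralogues apart.

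Cox4i1 (chr8:120674180-120674206, plus strand, 3′ UTR): CATGctaataaaagaccagtttacgtg
Cox4i2 (chr2:152764812-152764838, plus strand, coding exon): CATGaagagcaaccccatacagggcct
Cox6a1 (chr5:115345855-115345881, minus strand, coding exon): CATGtgaacccacttccgaccggctat
Cox6a2 (chr7:128205561-128205587, minus strand, 3′ UTR): CATGgtggaaggggctgggcaggctct
Atp5g1 (chr11:96073036-96073062, minus strand, 3′ UTR): CATGccagtcctggtgctggagtctac
Atp5g2 (chr15:102662962-102662988, minus strand, 3′ UTR): CATGgttctttcgtgtctcgtctgccc
Atp5g3 (chr2:73908473-73908499, minus strand, 3′ UTR): CATGgaaatatatgttatttccacagt

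The next 4 belong to genes with the lowest P between genotypes (Atp5d and Ndufc1) and to genes that set the libraries apart (Sdhd and Ndufb6).

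Atp5d (chr10:80145689-80145715, plus strand, 3′ UTR): CATGgaggattccccaatctggcatcc
Ndufc1 (chr3:51405585-51405611, minus strand, 3′ UTR): CATGtgatgatcacagtccttcctctg
Sdhd (chr9:50596692-50596718, minus strand, 3′ UTR): CATGaagctcgaaagtattccctttgg
Ndufb6 (chr4:40277680-40277706, minus strand, coding exon): CATGtgcttatacctatgtggtttgtt

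The last pair ends before 27 bases, because the transcript stops there and the poly(A) tail follows.

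Atp5e (chr2:174461072-174461088, minus strand, 3′ UTR, 17 bases): CATGgttcactttctgc
Ndufs1 (chr1:63143596-63143608, minus strand, 3′ UTR, 13 bases): CATGttaaaaaca

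Of the 75 genes, 46 had the predicted tag in the 3′ UTR, 25 in coding sequence and 4 across the border. A full tag of 27 bases was predicted for 70 genes. In 67 of them it occurred nowhere in a transcript of another gene. In Atp5f1, Atp5g2 and Ndufb8 it also stood in a transcript of 1 other gene each, at any position, so counts of these 3 are less certain. The last site lay under 27 bases from the transcript end in 5 genes, Uqcrb (4 bases), Uqcr10 (7), Ndufs1 (13), Atp5e (17) and Uqcrc2 (26). The transcript end used here fell within 10 bases of the end deposited with the gene for 54 of the 75. Among the tags printed above it lay farther off for Cox6a1 (11 bases), Sdhd (18), Ndufb6 (71), Ndufc1 (104) and Atp5g1 (198). The last CATG of the deposited transcript may be another one in these genes.

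Promoter windows from RefSeq (GRCm38.p6), running from 250 bases before to 50 after the gene start, were matched through the RefSeq transcript for 61 of the 75 genes. NRF1, YY1 and the ETS factor GABPA are known regulators of respiratory chain genes, and the letters of their sites were searched on both strands. CGCATGCG, the core of the NRF1 site, stood in 10 of 61 windows (16.4%), against 3.99% of the 10500 windows of genes in the table and 2.07% of all 27025 windows. AAGATGGC, a YY1 site, stood in 10 of 61 (16.4%), against 4.90% and 3.19%. CCGGAAGT, an ETS site, stood in 5 of 61 (8.2%), against 8.40% and 4.31%. At least 1 of the 3 stood in 23 windows (37.7%), against 16.1% of windows of genes in the table. These are letter matches and not measured binding. Windows with the NRF1 letters in capitals are shown for 3 genes, an assembly factor and subunits of complexes IV and V, with the distance of the match from the gene start.

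Ndufaf4 (chr4:24897960-24897989, plus strand, match at -112): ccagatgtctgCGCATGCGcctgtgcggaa
Cox6a1 (chr5:115349101-115349130, minus strand, match at -161): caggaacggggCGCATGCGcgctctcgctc
Atp5g2 (chr15:102671070-102671099, minus strand, match at -41): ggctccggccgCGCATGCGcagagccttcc

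The libraries held 7754202 to 13082873 tag hits. Clustering them on 9477 genes outside Chr 17 and outside the 75, those whose mean was 50 normalized counts or more, gave 3 sets of libraries, a number chosen after the data were seen. Set 1 held 12 libraries (8 cast/cast and 4 b6/b6), set 2 held 10 (4 cast/cast and 6 b6/b6), and set 3 held 2, both b6/b6 (b6/b6 6 and b6/b6 12). The first principal component carried 39.1% of the variance of those genes. The labels name no batch. The study number of the mice lay between 41 and 255 in set 1, between 15 and 364 in set 2, and was 27 and 42 in set 3. The sets were made without the 75 genes, but these genes follow them, so the genotype and intake comparisons of the 75 genes are also given with the sets taken into account. Markers of the hypothalamus were present, with 13 of 15 listed genes in the table and summed normalized counts between 6849.7 and 36551.

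Transcripts of the machinery were abundant in the tissue. The 75 genes took between 2.61% and 5.22% of all normalized tag hits of a library. Their median mean level was 1239 normalized counts, against 150.6 over all 13998 genes, and 31 of them were among the 1000 most abundant genes and 7 among the top 100. All 24 libraries held tags of 72 of the genes, 42 had a mean above 1000, and 7 had a mean under 100. The 5 most abundant, Cox4i1, Cox8a, Atp5b, Cox7b and Atp5d, made up 54.3% of the summed level.

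**Figure D1:**
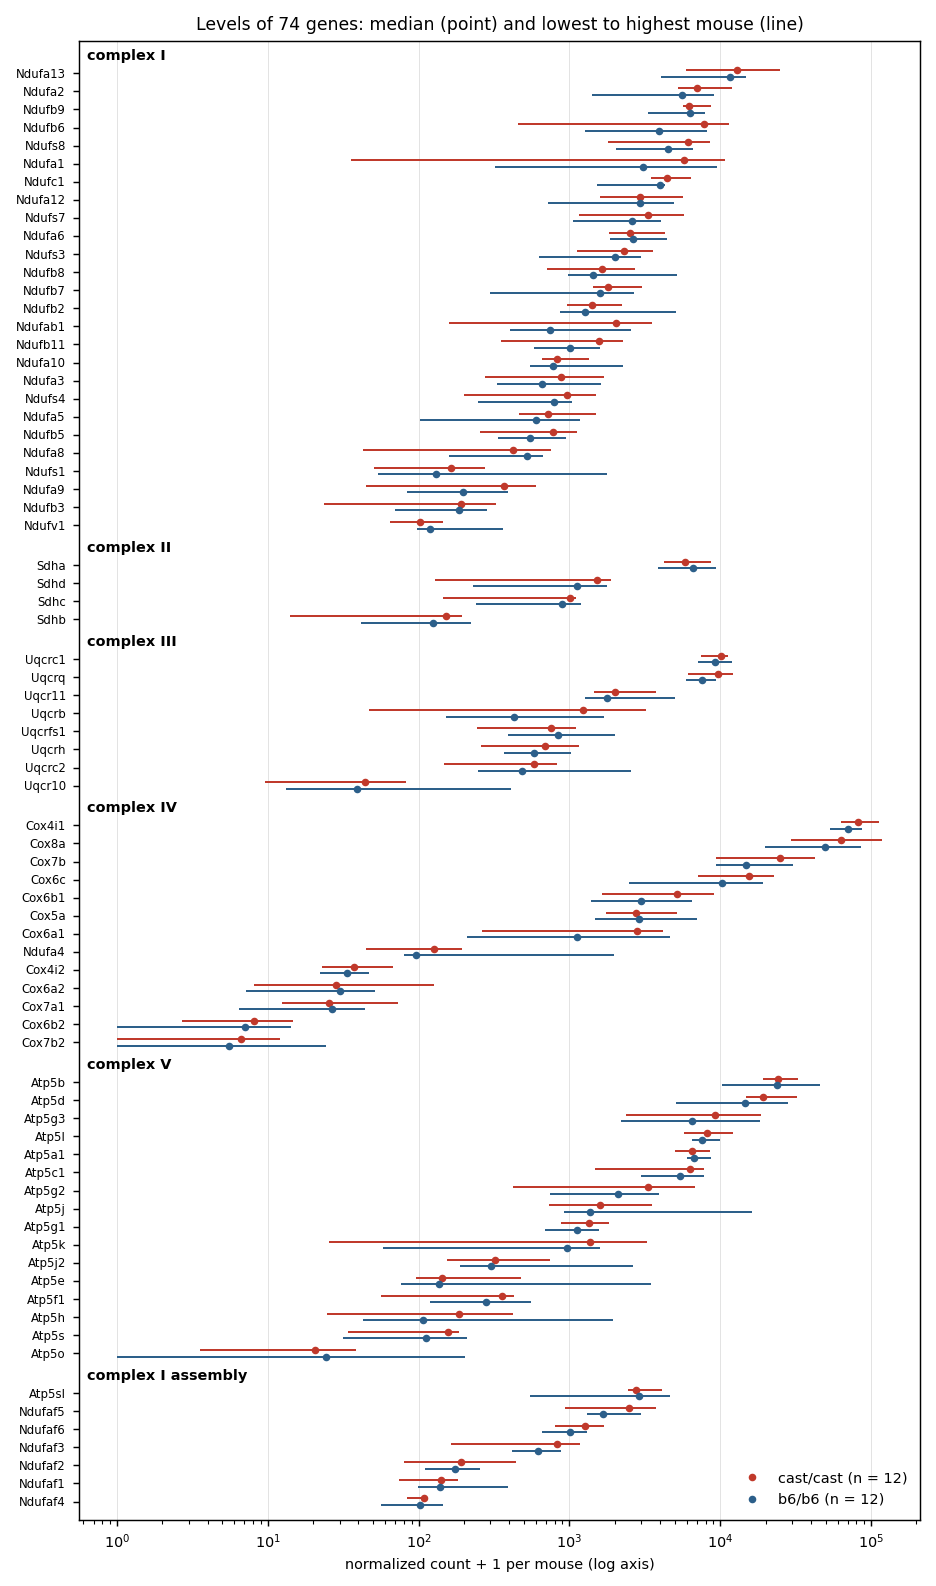
Level of 74 of the genes as normalized count plus 1 on a log axis, ordered by complex and mean level. Points are medians of the 12 mice of a genotype and lines run from the lowest to the highest mouse. Medians over all 24 mice run from 4.79 for Cox7b2 to 77264 for Cox4i1, and subunits of the same complex differ widely.

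Complex I, the entry point for NADH, was led by Ndufa13, a membrane arm subunit (chr8:69894181-69902558), with a lowest, median and highest normalized count over the mice of 4023, 12247 and 24879.6. Among the core subunits named here, which belong to the conserved catalytic core of the complex, the medians fell in the order Ndufs8 (5590.1), Ndufs7 (3175), Ndufs3 (2259), Ndufs1 (155) and Ndufv1 (111). Ndufv1, the flavin-bearing subunit (chr19:4007504-4012725), was the lowest of the complex by its mean of 124. These subunits join the complex in equal numbers, but their tag counts did not run level. The predicted tag of Ndufs1 has only 13 bases.

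Complex II, which is also an enzyme of the tricarboxylic acid cycle, showed the same unevenness of tag counts. Sdha, the flavoprotein (chr13:74322254-74350240), had 3896, 6029 and 9365 normalized counts (lowest, median and highest). The membrane anchors Sdhd (chr9:50596339-50603849) and Sdhc (chr1:171129156-171150603) had medians of 1326 and 1004. Sdhb, the iron-sulphur subunit (chr4:140961270-140979192), had 13.1, 134 and 221, the lowest of the 4.

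In complex III the core protein Uqcrc1 (chr9:108936647-108949641) was the most abundant, with 7078, 9521 and 11897 normalized counts. Uqcrq followed with a median of 7935. The Rieske iron-sulphur protein Uqcrfs1 had a median of 783 and the second core protein Uqcrc2 of 545. Uqcr10 was the lowest, with 8.61, 38.9 and 411, and its last CATG leaves a tag of only 7 bases.

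Complex IV contributed the most tags. Cox4i1, a regulatory subunit (chr8:120668289-120674209), had 53164, 77264 and 112480.4 normalized counts and held rank 3 among the 13998 genes. Cox8a, the smallest subunit (chr19:7215157-7217616), had 19803, 52964 and 118589.9 and held rank 6. Cox7b on the X chromosome (chrX:106015699-106022450) had a median of 18977 and Cox6c (chr15:35931975-35938246) of 13056. Ndufa4 had 43.9, 104 and 1981, the highest values being those of set 3.

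In complex V the catalytic beta subunit Atp5b (chr10:128083306-128090388) led with 10297, 24040.4 and 45916 normalized counts. The delta subunit Atp5d (chr10:80142314-80145818) had a median of 16724, the alpha subunit Atp5a1 of 6629.7, the gamma subunit Atp5c1 of 5966 and the epsilon subunit Atp5e of 141. The predicted tag of Atp5e has only 17 bases. Atp5o, a stalk subunit, was the lowest, with a median of 20.3 and no tag hit in 1 library. A count of 0 allows up to 3 tag hits. Among the assembly factors Atp5sl was highest (median 2859) and Ndufaf4 lowest (median 104, from 55.1 to 145).

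The spread between mice also differed from gene to gene. Among the 69 genes with a mean of at least 50 the median coefficient of variation over the 24 mice was 43.1%, against 34.4% for 9921 other genes at that level. Uqcrc1 and Atp5a1 varied least, each with 13.7%, followed by Atp5l, a membrane sector subunit, with 17.7%. Atp5e varied most, with 205%, ahead of Ndufa4 with 193% and Ndufs1 with 167%. In these 3 genes the 2 libraries of set 3 lay far above the others, as described below.

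In the Cox4i, Cox6a, Cox6b and Cox7b pairs, 1 member held at least 92.7% of the tags of the pair in every mouse. Cox4i1, the ubiquitous form, had a mean 2139.6 times that of Cox4i2, the form best known from lung, whose share of the pair ran from 0.0194% to 0.0691% over the mice. Cox4i2 was measurable all the same, with 21.2, 34.2 and 66.4 normalized counts. Cox6b1 exceeded Cox6b2, known from testis, 629-fold. Cox7b exceeded Cox7b2 3385-fold, and Cox7b2 was at 0 in 3 libraries and Cox6b2 in 1. Cox6a1 exceeded the heart and muscle form Cox6a2 59.9-fold, and the share of Cox6a2 ran from 0.35% to 7.26%. The muscle form Cox7a1 had a median of 25.6 normalized counts. Its paralogue Cox7a2 was not in the table, so the 2 could not be compared. Cox6c2, Cox8b, Cox8c and Ndufa4l2 were not in the table either. Striated muscle markers were low in the same libraries, with 3 of 8 listed genes in the table and summed levels between 7.61 and 104 normalized counts.

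The c ring of complex V was different, since its identical mature protein is made from 3 genes that were all well expressed. Atp5g3 held a median of 68.3% of the tags of the trio, Atp5g2 20.02% and Atp5g1 10.9%. Atp5g1 differed less between sets 1 and 2, with medians of 1313 and 1062, and was at 859 and 861 in set 3. Atp5g2 was at 3267 to 6822 in set 1, at 420.2 to 1429 in set 2, and at 2798 and 2869.7 in set 3, so sets 1 and 2 did not overlap. The share of Atp5g2 accordingly ran from 15.6% to 34.2% in set 1 and from 4.51% to 17.0% in set 2. Its tag also stands in 1 other gene.

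The first question of the design is whether the genotype of the Chr 17 segment changes these genes. Without regard to the library sets, few differed. At P of at most 0.05 in the limma fit over all genes, 5 of 75 were higher in cast/cast mice (3.76% of all genes were) and 0 were lower (4.37% were). None met the thresholds of the study, P of at most 0.01 with a ratio of at least 1.5, in the limma fit (1.49% of all genes did). In edgeR 1 did (391 of all 13998 genes) and in DESeq2 1 did (395). None had an adjusted P of at most 0.05 in limma (0.572% of all genes did), edgeR or DESeq2. At unadjusted P of at most 0.05 edgeR found 5 higher (3.13% of all genes) and 6 lower (8.43%), and DESeq2 found 5 higher (4.04%) and 4 lower (8.02%). With every library rescaled to the same total, limma found 4 higher (1.96%) and 1 lower (7.54%), and over all genes 275 higher and 1056 lower in place of 526 and 612. The median log2 difference of the 75, cast/cast minus b6/b6, was 0.13, with 48 above 0, against -0.02 for all genes.

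The 5 genes belong to complexes I, IV and V and to the assembly factors. Atp5d, the delta subunit of the ATP synthase, ran from 14864 to 32235 normalized counts in cast/cast mice (median 19197) and from 5063 to 28094 in b6/b6 mice (median 14617). The groups overlapped over most of their range, with a log2 difference of 0.60 ± 0.22 (SE, P = 0.0125, adjusted P = 0.518, limma). Cox4i1 ran from 62855 to 112480.4 (median 82189.5) in cast/cast and from 53164 to 87414 (median 70262) in b6/b6 mice, a difference of 0.32 ± 0.13 (P = 0.0169, adjusted P = 0.543). Ndufc1, a small membrane subunit of complex I, had medians of 4414 and 3961 and a difference of 0.41 ± 0.17 (P = 0.0222). Ndufa2, a matrix arm subunit, had medians of 7056 and 5605 and a difference of 0.55 ± 0.24 (P = 0.0293). Ndufaf6 had medians of 1273 and 1007 and a difference of 0.31 ± 0.15 (P = 0.0433). In each of the 5 both libraries of set 3, which are b6/b6, lay below every other library.

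Without set 3, 2 of the 75 were higher (2.25% of all genes) and 0 lower (2.64%), a share near that of all genes. They were Cox4i1 (0.25, P = 0.0421) and Ndufb2, while Atp5d had a difference of 0.36 (P = 0.0543), Ndufc1 of 0.20 (P = 0.0897) and Ndufa2 of 0.24 (P = 0.128). Next after the 5 came Ndufb7, with a difference of 0.57 ± 0.28 (P = 0.0506) that was 0.18 without set 3 (P = 0.248). The 6 genes with the lowest P on the other side were Ndufv1 (-0.38 ± 0.19, P = 0.0545), Uqcrfs1 (-0.36, P = 0.198), Ndufa8 (-0.50, P = 0.218), Ndufs1 (-0.52, P = 0.271), Sdhb (-0.43, P = 0.290) and Ndufa4 (-0.50, P = 0.298), none past the threshold. For Ndufs1 and Ndufa4 the value was 0.11 and 0.20, above 0, without set 3.

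**Figure D2:**
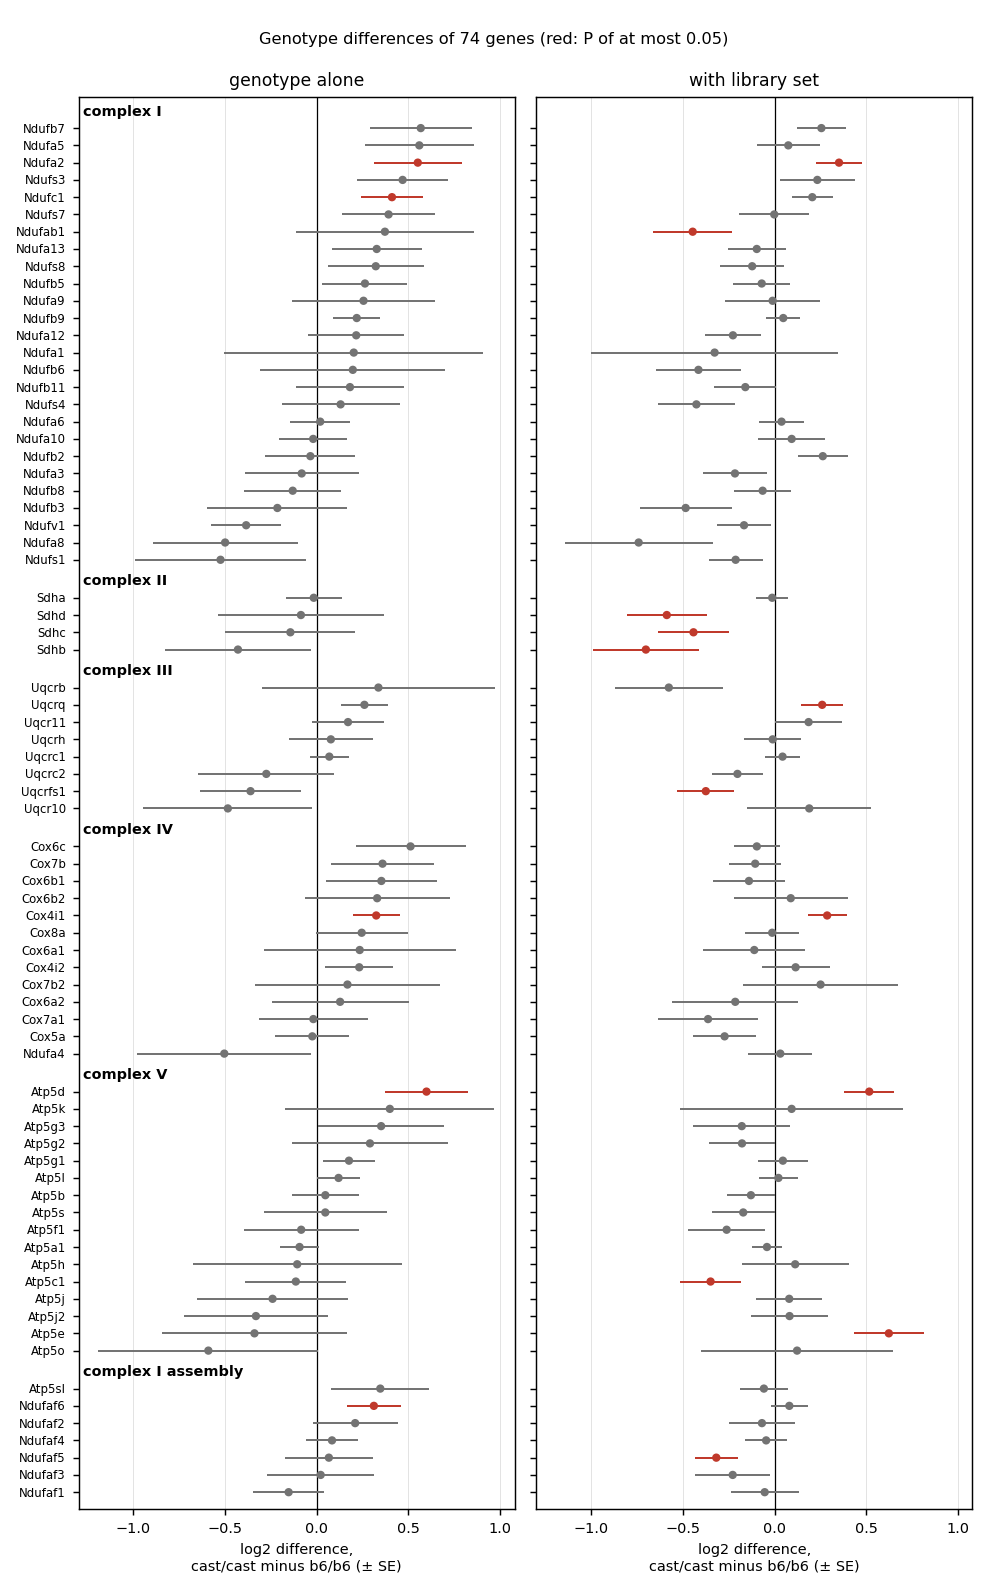
Log2 difference between genotypes (cast/cast minus b6/b6, bars ± SE) for 74 of the genes, left without a covariate and right with the library set as a covariate. Red marks P of at most 0.05. On the left 5 genes are red and all lie above 0, and on the right 5 lie above 0 and 7 below.

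With the library set as a covariate the picture changed. Then 5 of 75 were higher in cast/cast mice (7.47% of all genes) and 7 lower (7.77%), and the median difference was -0.06. Higher were Atp5d (0.52 ± 0.14, P = 0.000773, adjusted P = 0.0732), Cox4i1 (0.29, P = 0.0117), Ndufa2 (0.35, P = 0.00835), Atp5e (0.62, P = 0.00289) and Uqcrq (0.26, P = 0.0320). Without the covariate Atp5e had the opposite sign (-0.34, P = 0.506), its highest values being those of set 3. Lower were 3 of the 4 complex II genes, Sdhb (-0.70 ± 0.29, P = 0.0219), Sdhd (-0.59 ± 0.22, P = 0.0119) and Sdhc (-0.44 ± 0.20, P = 0.0325). Sdha, the remaining complex II gene, had a difference of -0.013 (P = 0.886). The other 4 were Atp5c1, Uqcrfs1, Ndufab1 (the acyl carrier protein of complex I) and Ndufaf5. Without the covariate Ndufab1 and Ndufaf5 lay above 0 (0.37 and 0.067). In all, 38 of the 75 differences changed sign when the covariate was added. No adjusted P was at or under 0.05 in this limma fit. Uqcrq, Ndufab1 and Ndufaf5 are named because they passed here. With the first 2 principal components as covariates instead, 4 were higher (3.96% of all genes) and 0 lower (4.37%), and the 3 complex II genes were not among them (Sdhb -0.31, P = 0.122).

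The lower values were those of set 2. Within set 1 (8 cast/cast and 4 b6/b6 libraries), 6 of 75 were higher in cast/cast mice (3.51% of all genes) and 0 lower (2.54%). Within set 2 (4 cast/cast and 6 b6/b6 libraries), 4 were higher (10.4%) and 22 lower (11.4%), with a median difference of -0.37. Ndufs4, an accessory subunit of complex I, was lower by 1.22 on the log2 scale there (SE 0.24, adjusted P = 0.0270, limma). It was the only 1 of the 75 with an adjusted P of at most 0.05, which 158 of all 13998 genes had. Sdhb differed by -1.52 (adjusted P = 0.0712, limma). Within set 1 Ndufs4 differed by 0.29 (P = 0.115) and Sdhb by 0.039 (P = 0.886). Within set 2 the first principal component also differed between the genotypes. It lay between 44.6 and 78.4 in the 4 cast/cast libraries and between 10.5 and 49.2 in the 6 b6/b6 libraries. The study number of the mice separated the genotypes there as well, from 15 to 270 in cast/cast and from 288 to 364 in b6/b6 mice, so within set 2 genotype and study number cannot be told apart. The part of the component in the complex II and Ndufs4 values was not tested. Atp5d and Cox4i1 were above 0 in both sets (Atp5d 0.25 and 0.81, Cox4i1 0.17 and 0.42).

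The genes differed more between the library sets than between the genotypes. In 15 of the 75 every library of set 2 lay below every library of set 1 (3.49% of all genes did so), and in 1, Sdha, every library lay above (3.14%). The median log2 difference, set 2 minus set 1, was -0.64 for the 75 and -0.02 for all genes. The summed share of the 75 in the library was 3.82% to 5.22% in set 1 and 2.61% to 3.41% in set 2. No test is given, because the sets were made from these libraries.

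**Figure D3:**
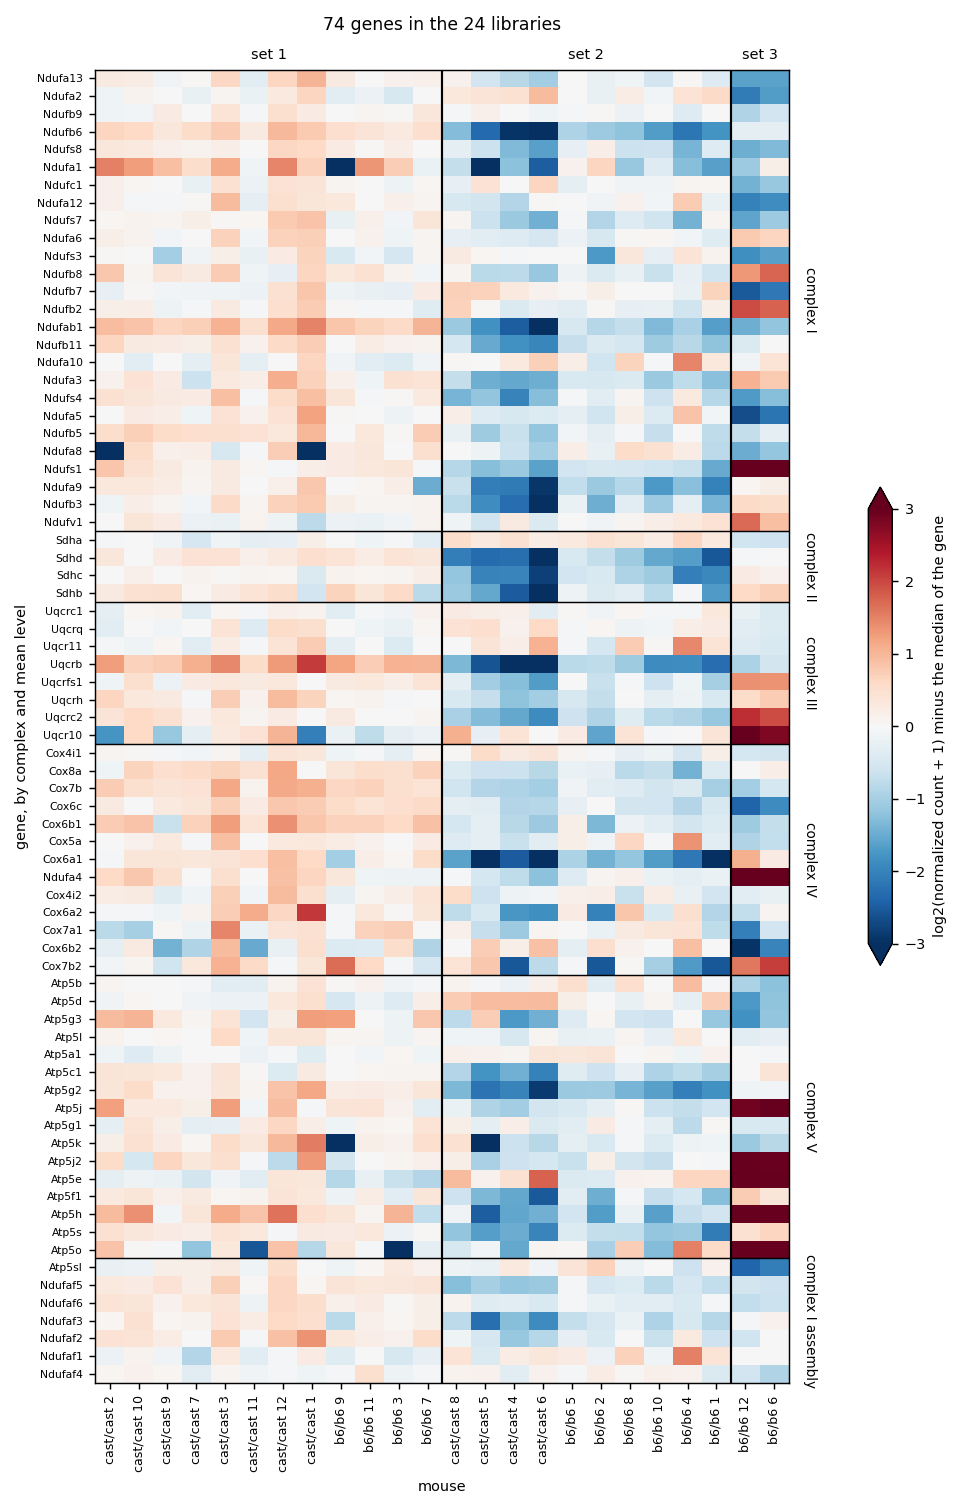
The genes (74 rows, by complex and mean level) in the 24 libraries (columns, by library set), each square showing log2(normalized count + 1) minus the median of the gene. Set 2 is lower than set 1 in most rows. In both libraries of set 3, 14 of all 75 genes lie above every other library (18.6% of all 13998 genes do) and 18 below (11.8%).

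The 15 genes came from every complex. Ndufb6, a membrane arm subunit, was at 6923 to 11375 normalized counts in set 1 (median 8343) and at 453 to 3046 in set 2 (median 1729.6), a ratio of medians of 4.82. Ndufab1 went from 1774 to 3543 in set 1 to 159 to 904 in set 2. Uqcrb of complex III showed the widest gap, with 1101 to 3209 in set 1, 46.3 to 439.5 in set 2 and a ratio of medians of 7.64. Its last CATG stands 4 bases from the transcript end. In complex IV the abundant small subunits fell together, Cox8a from 48489 to 118589.9 in set 1 to 19803 to 46409 in set 2, Cox7b from a median of 27757 to 12794 and Cox6c from 17928 to 9168. Cox4i1 did not follow, with medians of 76642 and 80850.2.

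Complex II split. Sdhd was at 1326 to 1877 in set 1 and at 127 to 965 in set 2, and Sdhc at 739 to 1146 and 144 to 729. Sdhb overlapped, at 75.7 to 213 and 13.1 to 128. Sdha went the other way, at 4232 to 6830.5 in set 1 and 7029 to 9365 in set 2. In complex V, Atp5d, Atp5a1 and Atp5e had higher medians in set 2 (ratios of 1.52, 1.17 and 1.49), while Atp5c1 was at a median of 6404 in set 1 and 3198 in set 2. Ndufb6, Uqcrb and Ndufab1 were named here for their gap after the values had been seen.

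The 2 libraries of set 3 stood apart in both directions. Both lay above all 22 others in 14 genes, near the share of all genes (18.6%), and below all others in 18 (11.8% of all genes). Atp5e had 1961 and 3463 normalized counts there against 75.7 to 477 elsewhere, Ndufs1 1703 and 1786 against 49.9 to 276, and Ndufa4 1764 and 1981 against 43.9 to 193. Atp5j, Atp5j2, Atp5h, Atp5o and Uqcr10 were also among the 14. Among the 18 were Cox4i1 (53164 and 53219 against 54721 to 112480.4), Atp5b (10297 and 12419 against 19109 to 45916), Cox6c (2473 and 3553 against 7081 to 22824), Sdha (3896 and 3961 against 4232 to 9365) and Ndufa5 (101 and 141 against 431 to 1510.1). Tag position was set beside these values. Of the 5 genes whose last CATG lies under 27 bases from the transcript end, 4 (80.0%) were at least doubled in set 3 against set 1. The exception was Uqcrb, whose site is only 4 bases from the end, with a log2 difference of -1.84. Of the other 70 genes 10 were at least doubled (14.3%). Among genes outside the machinery it was 204 of 594 (34.3%) and 1234 of 8931 (13.8%). The part of tag position in these differences was not tested.

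**Figure D4:**
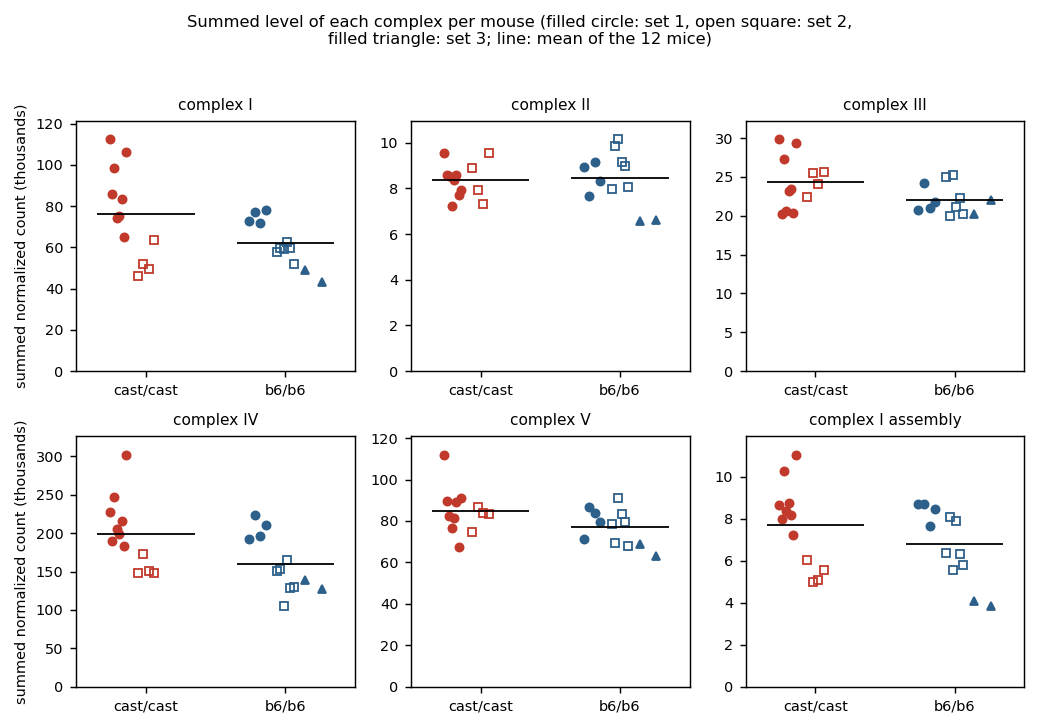
Summed normalized count (in units of 1000) of each complex per mouse, by genotype, for complexes I to V and the assembly factors. Filled circles are set 1, open squares set 2 and filled triangles set 3, and the line is the mean of the 12 mice. For complex IV set 1 lies between 182822 and 302070.5 and set 2 between 105735 and 173401, while complexes II and III overlap between the sets.

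Summed over subunits the sets separated complexes I and IV only. The complex I sum was 65094 to 112547 in set 1 and 46384 to 63501 in set 2, and that of complex IV 182822 to 302070.5 and 105735 to 173401. Complex V had 67463 to 111946 and 68046 to 91284, complex III 20171 to 29859.9 and 19999 to 25632, and complex II 7245 to 9536 and 7313 to 10154. The most abundant genes weigh most in these sums, Sdha in that of complex II.

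The second question is whether the genes track how much a mouse ate, taken within genotype as a slope per 10 kcal. For total intake 14 of 75 had a positive slope at P of at most 0.05 (5.0% of all genes) and 0 a negative one (4.96%). The median slope was 0.19 on the log2 scale with 66 of 75 above 0, against -0.01 over all genes. None had an adjusted P of at most 0.05 in the limma or edgeR fit, and edgeR gave 8 positive (3.23% of all genes) and 0 negative. Without set 3, 21 of 75 were positive (5.56%) and 0 negative. Of the 14, 8 were complex I subunits and 3 complex I assembly factors, with 1 each from complexes III, IV and V. Complex II had none, although all 4 slopes lay above 0.

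Ndufa1, a small complex I subunit encoded on the X chromosome (chrX:37187588-37191238), had the lowest P. Its level lay between 34.6 and 10827 normalized counts in cast/cast mice and between 318 and 9532 in b6/b6 mice, and the slope was 1.29 ± 0.37 per 10 kcal (SE, P = 0.00177, adjusted P = 0.485, limma). Atp5k, a membrane subunit of the ATP synthase (chr5:108433252-108434378), followed with 1.0 ± 0.30 (P = 0.00285), and the core complex I subunit Ndufs7 (chr10:80249451-80256792) with 0.43 ± 0.14 (P = 0.00434). Atp5k and Ndufa1 were both far below their other values in cast/cast 5 (107.2 kcal) and b6/b6 9 (99.2 kcal), each with the second lowest total of its genotype. Without these 2 mice the slope of Ndufa1 was 0.63 (P = 0.0243) and that of Atp5k 0.36 (P = 0.0152), while Ndufs7 had 0.47 (P = 0.00482).

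**Figure D5:**
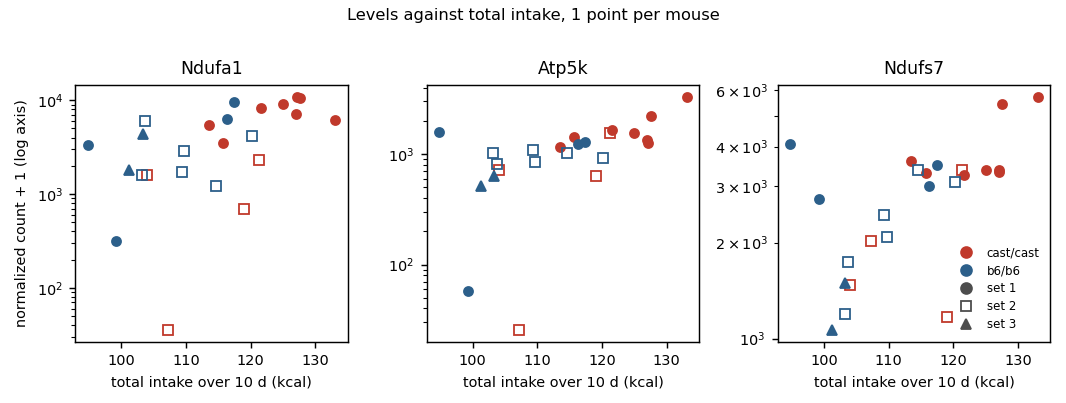
Normalized count plus 1 (log axis) of Ndufa1, Atp5k and Ndufs7 against total intake over 10 d (kcal), 1 point per mouse, by genotype. Colour marks the genotype and shape the library set. The 2 lowest points of Ndufa1 and of Atp5k are the same mice, cast/cast 5 and b6/b6 9.

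Total intake differed between the library sets in cast/cast mice, where those of set 1 ate 113.5 to 133.1 kcal (median 126.0) and those of set 2 104.0 to 121.3 kcal (median 113.1). The b6/b6 mice ate 94.8 to 117.4 kcal in set 1 (median 107.75), 103.2 to 120.2 kcal in set 2 (median 109.5), and 101.2 and 103.3 kcal in set 3. With the set as a covariate 16 of 75 had a positive slope (4.66% of all genes), led by Ndufa1 (1.13, P = 0.00323). With the first 2 principal components 7 did (3.79%), again with Ndufa1 (0.99, P = 0.00977) and Atp5k (0.90, P = 0.0153), but not Ndufs7 (0.14, P = 0.133). Within set 1 there were 3 (3.25% of all genes) and within set 2 there were 2 (1.22%), with 59 of 75 slopes above 0 in each. The 3 were Ndufa9, Atp5e and Ndufa1, and the 2 were Ndufs7 and Atp5h, so no gene passed in both sets.

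For C/P intake most slopes lay below 0. A positive slope was found for 0 of 75 (1.34% of all genes) and a negative one for 7 (2.38%), with a median slope of -0.17, 22 above 0 and no adjusted P of at most 0.05. Atp5k had -1.15 ± 0.37 per 10 kcal (P = 0.00465, adjusted P = 0.96), Ndufa1 -1.31 ± 0.47 (P = 0.010) and Atp5h, a stalk subunit of the ATP synthase, -1.03 ± 0.38 (P = 0.0120). The other 4 were Ndufa6, Ndufaf3, Atp5o and Atp5j. With the library set 8 were negative (3.14%) and with the 2 principal components 12 (3.98%). Cast/cast 5 had the highest C/P intake of all mice, 106.6 kcal. Without it and b6/b6 9 the median slope was -0.0054 with 36 of 75 above 0. Then 2 of 75 were negative (1.70%). The slopes of Atp5k and Ndufa1 were 0.026 (P = 0.907) and 0.10 (P = 0.806), so their C/P values rested on these 2 libraries. Within set 1, which holds b6/b6 9 but not cast/cast 5, 8 of 75 were negative (338 of all 13998 genes) and 0 positive. The median slope there was -0.13, with 12 above 0. Within set 2, which holds cast/cast 5, 6 of 75 were negative (431 of all 13998 genes) and 1 positive (245). The median slope there was -0.017, with 30 above 0. Atp5k had -2.07 in set 2 (P = 7.65e-08, adjusted P = 0.00107, limma). This was the only adjusted P of at most 0.05 among the 75 in these C/P fits (15 of all genes within set 2). The Atp5k count was 24.6 in cast/cast 5, against 635 to 1542 in the other libraries of set 2.

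The study number of the mice, the only label besides identity and intake, was fitted in the same way per 100 numbers. Here 8 of 75 had a positive slope (10.3% of all genes) and 10 a negative one (10.9%). Ndufs1 had -0.62 ± 0.18 (P = 0.00161, adjusted P = 0.152), Ndufb7 0.34 ± 0.11 (P = 0.00382) and Uqcrc2 -0.44 ± 0.15 (P = 0.00552). In limma no adjusted P was at or under 0.05, while edgeR gave 3 positive (7.27% of all genes) and 19 negative slopes (15.8%), and 8 of the 22 had an adjusted P of at most 0.05 (2.75%). All 3 named genes were extreme in the 2 libraries of set 3, whose study numbers are low. Without set 3 none of the 75 had P of at most 0.05 in either direction in the limma fit (1.80% of all genes had a positive slope), and Ndufs1 had -0.21 (P = 0.125). With the library set as a covariate 19 of 75 had a positive slope (6.34%) and 0 a negative one, among them Sdhb, Sdhc and Sdhd, with Sdhb lowest in P (0.51, P = 0.000404). With the 2 principal components 1 was positive (2.29%) and 1 negative.

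Other parts of mitochondrial energy metabolism, from lists set out for this comparison, held few genes that passed between the genotypes without a covariate. Over all genes 3.76% were higher and 4.37% lower in that fit. In the tricarboxylic acid cycle, which feeds electrons to the chain, all 18 listed genes were in the table and 0 were higher or lower in cast/cast mice at P of at most 0.05 in the limma fit. Among ubiquinone synthesis genes and electron carriers 19 of 20 were in the table, with 0 higher and 1 lower, Gpd2, the mitochondrial glycerol phosphate dehydrogenase (-0.41, P = 0.0185). Cycs, which encodes cytochrome c, differed by 0.31 (P = 0.20). Of 20 other respiratory chain assembly factors 2 were higher, both for complex II, Sdhaf1 (0.31, P = 0.0174) and Sdhaf2 (0.42, P = 0.0297), and 0 lower. Of 14 complex I assembly factors and related genes, 6 of which are among the 75, 1 was higher (Ndufaf6) and 0 lower. The 6 nucleotide and phosphate carriers and porins gave 0 and 0. Among 16 transcriptional regulators of mitochondria 0 were higher and 1 was lower, Yy1 (-0.50, P = 0.0122). Among 4 uncoupling proteins 0 were higher and 1 was lower, Slc25a27 (-1.01, P = 0.00164, adjusted P = 0.201), with medians of 25.7 and 40.0 and values of 139 and 156 in set 3. None of these lists held a gene with an adjusted P of at most 0.05.

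With the library set as a covariate more of these genes passed P of at most 0.05, as 7.47% of all genes did in the higher and 7.77% in the lower direction. In the tricarboxylic acid cycle 2 of 18 were higher in cast/cast mice, Ogdh and Pdha1, subunits of the 2-oxoglutarate and pyruvate dehydrogenases (0.21, P = 0.0435 and 0.32, P = 0.00381). Lower were 3, citrate synthase Cs (-0.26, P = 0.0147), Suclg2 and Fh1. Among carriers and ubiquinone synthesis genes 4 of 19 were higher (Coq4, Adck3, Adck4 and Coq10a) and 3 lower (Etfdh, Pdss2 and Coq9). Of 4 uncoupling proteins 2 were lower, Slc25a14 (-0.49, P = 0.0378) and Slc25a27 (-0.55, P = 0.0130). The other assembly factors gave 1 higher and 1 lower, the complex I assembly factors and related genes 0 and 2, the regulators 1 and 1, and the carriers of nucleotides and phosphate with the porins 0 and 0. Gpd2 and Yy1 did not pass in this fit (P = 0.119 and 0.0802). These genes were named because they passed there.

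For total intake, 5.0% of all genes had a positive slope at P of at most 0.05 in limma and 4.96% a negative one. Positive were 3 of 19 carriers and ubiquinone genes, Cycs (0.30, P = 0.0411), Etfdh (0.49, P = 0.0221) and Coq9 (0.40, P = 0.0229). Of 20 other assembly factors 3 were positive and 1, Ttc19, was negative. The 3 were Atpif1, the inhibitor of the ATP synthase (0.43, P = 0.00452), Cox17 (0.30, P = 0.0343) and Cox18 (0.41, P = 0.0174). Of the 6 nucleotide and phosphate carriers and porins Vdac2 had 0.23 (P = 0.0397), and of the 16 regulators Tfb2m had 0.31 (P = 0.0425). In the tricarboxylic acid cycle 0 of 18 passed and the median slope was 0.01. Cycs also followed the library sets, with medians of 14231 in set 1 and 7129 in set 2.

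Markers of cell types were set beside these values. Between the genotypes 0 of 13 hypothalamus, 0 of 10 astrocyte, 0 of 10 oligodendrocyte, 0 of 10 endothelial and mural, 0 of 4 choroid plexus, 0 of 4 pituitary and 0 of 3 striated muscle markers passed P of at most 0.05. Of 12 neuron markers 1 was lower (Gad1), of 10 microglia markers 1 was higher and 1 lower, of 5 thalamus markers 2 were lower, and of 3 erythrocyte markers 1 was lower (Alas2). Of 4 ependymal markers 2 were higher, 1 of them with an adjusted P of at most 0.05 (Rsph1, a gene of Chr 17, with medians of 228 and 42.3). Of 10 immediate early genes 2 were higher (Fosb and Jun). With the library set as a covariate 3 of 10 astrocyte markers were higher (Aldh1l1, Agt and Aldoc) and 1 lower (Aqp4), 1 hypothalamus marker (Nkx2-1) and 1 oligodendrocyte marker (Mag) were lower, 1 each of the neuron and of the microglia markers was higher and 1 lower, 1 ependymal marker (Rsph1) was higher and 1 thalamus marker was lower. The other lists gave 0 in that fit, in which 7.47% of all genes were higher and 7.77% lower. For C/P intake 4 of 13 hypothalamus markers had a negative slope at P of at most 0.05 (2.38% of all genes) and 0 a positive one, with a median slope of -0.26, and 1 of 12 neuron markers had a negative one. For total intake 2 of the 13 hypothalamus markers had a positive slope (5.0% of all genes), with a median of 0.17. Summed oligodendrocyte markers ran from 24361 to 49521 in set 1 and from 14979 to 30594 in set 2, and summed neuron markers from 46491 to 60827 and from 48384 to 70022. Summed astrocyte markers ran from 33868 to 41029 and from 34066 to 47305, and hypothalamus markers from 15742 to 36551 and from 6849.7 to 21480.3. In set 3 the erythrocyte markers summed to 1704 and 4999 against 105 to 1044 elsewhere, and the ependymal markers to 198 and 306 against 322 to 2121. Pituitary markers ran from 136 to 2039.7 over all libraries, with Gh, Cga and Pitx1 at 0 in at least 1 library. The part of these cell types in the values of the 75 genes was not tested.

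Subunit genes of Chr 17 were left out by the rule, and of these 6 (Ndufa7, Ndufa11, Ndufb10, Ndufv2, Ndufv3 and Cox7a2l) only Ndufb10 passed P of at most 0.05 between the genotypes without a covariate. It was lower in cast/cast mice, with medians of 94.5 and 166 normalized counts and a log2 difference of -0.77 ± 0.27 (P = 0.00867, adjusted P = 0.472, limma). With the library set as a covariate Ndufb10 had -0.38 (P = 0.0663), while Ndufa7 (-1.29, P = 0.0157) was lower and Ndufv3 (0.51, P = 0.0182) higher.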

How the data were processed

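Processed values were used as deposited, for 24 hypothalamus SAGE-Seq libraries, 12 cast/cast and 12 b6/b6. The authors mapped tags of 27 bases to RefSeq transcripts and the GRCm38 (mm10) genome, using their own version of the SOLiD SAGE software. They deposited a signal per gene, the tag hits scaled by a size factor that DESeq gave each library. The lowest mean in the table is 6.03. The version of DESeq is not given in the sources used here. All values came back as whole tag hits when multiplied by the size factor (100.0% in each library), and totals were 7754202 to 13082873. Replicates are separate mice. Columns of the authors' own comparison (group means, fold changes and P values) were not used.

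The main test was limma 3.58.1 (R 4.3.3, lmFit and eBayes, trend on), two-sided, on log2 of the normalized count with a pseudocount of 1, over all genes with a mean of at least 5, which was every gene, with Benjamini-Hochberg adjustment over all of them. Log2 differences are on that scale and understate changes of low genes. Intake and study number were fitted with genotype as a covariate. edgeR 4.0.16 (quasi-likelihood, TMM) and DESeq2 1.42.0 on recovered tag hits, pseudocounts of 0.5 and 5, a minimum mean of 20, rescaled libraries and study number as a covariate were alternatives. Library sets were made by Ward clustering of log2 values (Python 3.11.15, scipy 1.17.1). Tags were predicted from GENCODE transcripts (GRCm38) matched to the deposited RefSeq accession, taking the transcript whose end was nearest to the deposited one. The genotype fits without further covariates in limma, edgeR and DESeq2, and the limma slope on total intake, were tried on simulated data. The other fits were not.

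The 75 genes and all gene lists were chosen with earlier results of these data known. Genes named are the highest and lowest of each complex, the 6 genes of lowest P in each direction between genotypes, the 3 of lowest P in each slope, core subunits, paralogues, and the 3 of largest and of smallest spread. Other genes were named after their values were seen. A gene is not reported here by name and is left out of the plots of single genes.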

Additional observations from a re-analysis of the deposited data

How the results depend on the processing

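In this paragraph brackets give the count over all 13998 genes. The number higher in cast/cast mice, 5 (526), was 10 with study number as a covariate (952) and 2 without the 2 libraries of set 3 (315). The number lower, 0 (612), was 1 with libraries rescaled to the same total (1056), 6 with edgeR (1180) and 4 with DESeq2 (1123). It was 2 with study number as a covariate (1124) and 7 with the library set as a covariate (1088). With edgeR and the library set it was 5 (978), and within set 2 it was 22 (1601). The study's thresholds, which called 0 genes, called 1 with edgeR, 1 with DESeq2 and 11 within set 2, and 1 gene had an adjusted P of at most 0.05 within set 2. The median difference of 0.13 was -0.37 within set 2, and 0.039 with rescaled libraries, where the median of all genes shifted to -0.11. For total intake the 14 genes (1394) were 8 with edgeR (1182), 7 with 2 principal components (861) and 3 within set 1 (788). They were 2 within set 2 (384) and 21 without set 3 (1513). For C/P intake the 7 (521) were 12 with 2 principal components (977) and 2 without cast/cast 5 and b6/b6 9 (359). For study number the 18 (2968) were 2 with 2 principal components (592), 2 within set 1 (684), 10 within set 2 (662) and 0 without set 3 (542). The causes were not tested.

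Between 21 and 38 of the 75 differences changed sign in the fits that use the sets, the components or leave out set 3, and at most 10 under the other alternatives of the genotype comparison. Among 22 genes followed, the sign turned for Ndufa4 (0.28 with DESeq2, 0.20 without set 3, 0.032 with the library set, 0.059 with edgeR and the library set, 0.29 with 2 principal components, 0.51 within set 1), Ndufs1 (0.16 with DESeq2, 0.11 without set 3, 0.19 with 2 principal components, 0.044 within set 1), Sdhb (0.039) and Ndufv1 (0.018) within set 1, and Ndufaf6 (-0.026) within set 2. It also turned for Atp5e (0.42 with DESeq2, 0.39 without set 3, 0.62 with the library set, 0.65 with edgeR and the set, 0.60 with 2 components, 0.54 and 0.71 within sets 1 and 2), Ndufb2 (0.30, 0.26, 0.28, 0.32, 0.32 and 0.20 in the same order from without set 3 on), Ndufaf5 (-0.0041, -0.32, -0.34, -0.079, -0.032 and -0.64 in that order, and -0.025 with rescaled libraries), Ndufab1 (-0.45 with the set, -0.39 with edgeR and the set, -0.031 with 2 components, -1.1 within set 2) and Ndufs4 (-0.43, -0.44, -0.25 and -1.22 likewise, and -0.10 without set 3). For Sdhd it was 0.12 with edgeR, 0.13 with DESeq2, 0.018 without set 3 and 0.15 without cast/cast 5 and b6/b6 9, for Sdhc 0.034 without the last 2, for Atp5c1 0.043 with edgeR, 0.044 with DESeq2, 0.038 without those 2 and 0.14 within set 1, and for Sdha 0.076 with study number and 0.0024 within set 2. Pseudocounts of 0.5 and 5 left the counts of genes called between genotypes as they were. The fit without a filter is the main fit itself, since the minimum mean of 5 removed no gene. For slopes only the pseudocount of 5 was run, and it changed 1 call, for study number. A minimum mean of 20 left 73 genes. Alternatives that use the sets, the principal components or left-out libraries were chosen after seeing the data. No paired analysis was possible because the labels give no replicate numbers. Depth limits the 7 genes with means under 100 most.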

Other observations

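Single libraries held very low values of otherwise abundant genes of the machinery. Atp5k, with a median of 1128 normalized counts, had 24.6 in cast/cast 5 (27 tag hits) and 56.9 in b6/b6 9 (59 tag hits). Ndufa1, with a median of 3808, had 34.6 in cast/cast 5 and 318 in b6/b6 9. Of 8007 genes with a median of at least 100, 6 were under 10% of their median in both of these libraries, and 2 of the 6 were Atp5k and Ndufa1, the others being Bex4, Kri1, Sqrdl and Yars2. The 2 mice differ in genotype and library set. In cast/cast 6 Ndufb6 (453), Sdhb (13.1), Sdhd (127) and Uqcrb (46.3) were under 10% of their medians, as Uqcrb was in cast/cast 4 (71.1), Ndufa8 in cast/cast 2 (41.8) and Cox6a1 in b6/b6 1 (208). No cause was tested.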
